A study of Homo sapiens with 24 samples.

Results

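The ALDH1 family genes ALDH1A1, ALDH1A2, ALDH1A3, ALDH1B1 and ALDH1L1 were followed across sorted cells of 2 cancer lines. They were chosen by symbol, as the rows of the count table that bear these names, and make up 5 of its 28307 genes. The family holds enzymes of the kind whose activity the sort reads, and which enzymes turned over its substrate in these cells was not measured. ALDHbr and ALDHneg cells were separated with the ALDEFLUOR assay, in which cells that turn a fluorescent substrate over by aldehyde dehydrogenase activity become bright, with DEAB, an inhibitor of these enzymes, setting the gate. RNA was sequenced from both populations of SUM159, a breast cancer line, and SW620, a colon cancer line, after 30 h under NIF (nifuroxazide, a nitrofuran antibiotic) or under its solvent DMSO. Line, population and treatment gave 8 groups of 3 libraries each. The final concentration of NIF is not used here. Each group comes from a single established line, and a sort gate divides a continuous range of enzyme activity.

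Aldehyde dehydrogenases oxidise aldehydes to acids with NAD or NADP. ALDH1A1, ALDH1A2 and ALDH1A3 are cytosolic enzymes that make retinoic acid, the ligand of the retinoic acid receptors, from retinaldehyde. ALDH1B1 is a mitochondrial relative that oxidises acetaldehyde and other aldehydes, and ALDH1L1 is a folate enzyme that turns 10-formyltetrahydrofolate into tetrahydrofolate. High ALDH activity is widely used to enrich stem-like cells from breast and colon tumours. In RefSeq on GRCh38.p14, ALDH1A1 lies on chromosome 9 (72900671 to 72953053, minus strand), as does ALDH1B1 (38392702 to 38398661, plus strand). ALDH1A2 (57953429 to 58065711, minus strand) and ALDH1A3 (100879831 to 100916626, plus strand) lie on chromosome 15, and ALDH1L1 lies on chromosome 3 (126103570 to 126197945, minus strand).

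Total counts per library ran from 30253187 to 43127948. In the fits of each line, edgeR's filter on low counts kept 4 of the 5 genes in SUM159 (all but ALDH1L1) and 3 in SW620 (ALDH1A1, ALDH1A3 and ALDH1B1), while the fit of all 24 libraries kept 5. In SUM159, ALDH1A3 passed this filter through the ALDHbr DMSO libraries, where it was highest. The labels of the lines were checked against marker lists. The summed level of 10 colon epithelial genes ran from 2200 to 2908 CPM (counts scaled by the library total, here after TMM normalization) in SW620 and from 0.198 to 8.09 CPM in SUM159, and that of 10 mesenchymal genes from 6906 to 9169 CPM in SUM159 and from 395 to 669 CPM in SW620. CDX1 and CDX2, which define intestinal epithelium, were under 1 CPM in SW620 too. In SW620 the second ALDHbr DMSO library stood apart from the other two of its group, with a chi-square per gene of 46.1 and 35.9 against them and of 6.52 between them, so values that turn on it are given with and without it. Replicates were independent experiments in the study's methods.

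The 250 bases before the RefSeq start of the 3 genes that carry most of the results are shown, since ALDH1A1 separates the populations and all 3 fell together under NIF in SW620. They are given 5′ to 3′ on the strand of the gene, with matches to any of 7 short motifs on both strands in capitals. The motifs were the CCAAT box, the octamer ATGCAAAT, the TATA box as TATAAA, the STAT motif TTCNNNGAA, the antioxidant response motif TGACNNNGC, the aryl hydrocarbon receptor motif GCGTG and the nuclear receptor motif AGGTCA. The windows are chr9:72953054-72953303 (minus strand) for ALDH1A1, chr15:100879581-100879830 (plus strand) for ALDH1A3 and chr9:38392452-38392701 (plus strand) for ALDH1B1, all on GRCh38.p14 and from RefSeq.
ALDH1A1: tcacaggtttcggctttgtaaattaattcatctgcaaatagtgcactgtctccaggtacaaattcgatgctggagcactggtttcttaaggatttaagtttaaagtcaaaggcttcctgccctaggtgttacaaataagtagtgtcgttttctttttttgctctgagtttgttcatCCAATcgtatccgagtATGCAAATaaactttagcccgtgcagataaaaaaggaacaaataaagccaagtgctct
ALDH1A3: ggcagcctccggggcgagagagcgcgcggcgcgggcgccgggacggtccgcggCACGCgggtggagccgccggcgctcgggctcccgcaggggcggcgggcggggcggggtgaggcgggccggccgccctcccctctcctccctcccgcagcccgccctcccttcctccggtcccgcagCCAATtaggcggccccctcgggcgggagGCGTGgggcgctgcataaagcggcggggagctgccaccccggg
ALDH1B1: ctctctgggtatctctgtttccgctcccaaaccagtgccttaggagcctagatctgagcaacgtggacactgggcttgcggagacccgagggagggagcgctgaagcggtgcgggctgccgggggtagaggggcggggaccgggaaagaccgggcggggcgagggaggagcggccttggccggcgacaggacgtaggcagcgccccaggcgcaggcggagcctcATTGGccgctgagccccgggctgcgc
The windows differed in base composition. G and C made up 38.4% of the ALDH1A1 window, 70.4% of the ALDH1B1 window and 82.4% of the ALDH1A3 window, beside a median of 58.0% over 35116 promoter windows of the same annotation. The ALDH1A1 window held 6 CpG dinucleotides, the ALDH1B1 window 23 and the ALDH1A3 window 38. CCAAT lay in all 3, from 74 to 70 bases before the start in ALDH1A1, from 71 to 67 in ALDH1A3 and, on the other strand, from 26 to 22 in ALDH1B1, and 32.0% of all windows held it. ATGCAAAT, the octamer, lay from 58 to 51 bases before the ALDH1A1 start and was in 1.63% of all windows. GCGTG lay at 2 places in the ALDH1A3 window and was in 32.2% of all windows. Shares over all windows also count the 250 bases before the start. These are matches of letters, and no binding was measured.

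ALDH1A1 reached the highest levels of the family. On a common scale over the 24 libraries, its mean was highest in SW620 ALDHbr cells under DMSO at 1397 ± 50.3 CPM (SD, n = 3 in this and every group), followed by SW620 ALDHbr under NIF at 1017 ± 33.1 CPM, SW620 ALDHneg under DMSO at 956 ± 18.3 CPM and SW620 ALDHneg under NIF at 586 ± 14.3 CPM. SUM159 ALDHbr cells came next (NIF 167 ± 43.8 CPM, DMSO 127 ± 25.9 CPM), and SUM159 ALDHneg cells were last at 0.450 ± 0.0553 CPM under DMSO and 0.392 ± 0.172 CPM under NIF. Neighbours in this order overlapped only within the SUM159 populations, so NIF and DMSO libraries could not be ranked there. The ALDHneg cells of SW620 thus held more ALDH1A1 RNA, as a share of the reads, than the ALDHbr cells of SUM159, in every library.

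ALDH1A3 and ALDH1B1 were ordered differently. ALDH1A3 was at 188 ± 4.70 CPM in SW620 ALDHneg and 146 ± 6.17 CPM in SW620 ALDHbr cells under DMSO, at 52.8 ± 2.18 CPM (ALDHbr) and 51.0 ± 2.29 CPM (ALDHneg) under NIF, and under 1 CPM in all 12 SUM159 libraries. ALDH1B1 stayed within a narrow range, from 79.5 ± 4.69 CPM in SUM159 ALDHneg cells under DMSO to 32.5 ± 0.743 CPM in SW620 ALDHneg cells under NIF, and each SUM159 library lay above each SW620 library. ALDH1A2 and ALDH1L1 were near the limit of detection. ALDH1A2 had 6 to 29 counts in each SUM159 library and 1 count in all 12 SW620 libraries together, and ALDH1L1 had 0 to 19 counts per library in both lines.

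The first comparison asked how the family differed between cells sorted for high and low ALDH activity. In SUM159 the largest difference in the family was that of ALDH1A1, which was 277-fold higher in ALDHbr than in ALDHneg cells under DMSO, and the ALDHneg mean was 0.355% of the ALDHbr mean. The 3 ALDHbr DMSO libraries had 4859, 3042 and 5671 counts (150.1, 103 and 153 CPM, with CPM here and below scaled within the line), and the 3 ALDHneg DMSO libraries had 17, 13 and 22 counts (0.479, 0.419 and 0.542 CPM). The ranges lay far apart. The log2 fold change was 8.11 (SE, its standard error, 0.29, adjusted p = 1.63e-10, quasi-likelihood test of edgeR). Paired by replicate number, the ratio was 313, 247 and 281. The sort selected cells by the activity of such enzymes, so this comparison is not independent of the gate. In bulk RNA fewer cells of a type and less RNA per cell cannot be told apart.

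Under NIF the separation was of the same kind. ALDH1A1 had 7240, 3924 and 8331 counts in ALDHbr (186, 127 and 218 CPM) and 28, 10 and 10 in ALDHneg cells (0.630, 0.324 and 0.300 CPM). No ALDHneg library came near an ALDHbr library. The log2 fold change was 8.64 (SE 0.29, adjusted p = 8.4e-11, edgeR), and the paired ratios were 295, 391 and 724. The change in this difference with NIF did not pass (log2 0.52, 95% interval -0.80 to 1.85).

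ALDH1A1 passed as higher and ALDH1B1 as lower in ALDHbr cells under both treatments, where 23.0% of all 14953 genes tested passed under DMSO and 21.9% under NIF (36.0% and 35.2% with the replicate block). ALDH1A3 entered the test only because of its level in ALDHbr cells, so its p-values are given as a description and are not counted with these. It had 16, 14 and 33 counts in ALDHbr and 5, 6 and 11 in ALDHneg cells under DMSO, so its groups did not overlap. Its log2 fold change was 1.60 (SE 0.44, adjusted p = 0.0158, edgeR). It rested on few reads, and without the third ALDHbr library (log2 1.24, adjusted p = 0.106) or the first ALDHneg library (log2 1.40, adjusted p = 0.0704) it did not pass. Under NIF, ALDH1A3 had 5, 9 and 14 counts in ALDHbr and 2, 1 and 2 in ALDHneg cells, a ratio per total count of 5.49 (exact counting interval 2.09 to 18.2), and a log2 fold change of 2.41 (SE 0.63, adjusted p = 0.0127, edgeR). Without the third ALDHbr library its adjusted p was 0.0652, and without the first ALDHneg library 0.0532.

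ALDH1B1, the mitochondrial member, went the other way by a small amount in SUM159. Under DMSO it was at 71.0, 70.4 and 68.6 CPM in ALDHbr and at 80.8, 89.7 and 83.9 CPM in ALDHneg cells, with every ALDHbr library below every ALDHneg library. It was 1.21-fold lower in ALDHbr cells (log2 fold change -0.28, SE 0.07, adjusted p = 0.00776, edgeR). Under NIF it was at 74.2, 77.5 and 67.3 CPM in ALDHbr and 82.6, 90.9 and 80.3 CPM in ALDHneg cells, again without overlap, with a log2 fold change of -0.21 (SE 0.07, adjusted p = 0.0336, edgeR). This call was lost without any of 4 single libraries, the first or the third ALDHbr or the first or the second ALDHneg NIF library (adjusted p from 0.0609 to 0.156). ALDH1A2 overlapped between the populations, with 6, 8 and 23 counts in ALDHbr and 12, 20 and 29 in ALDHneg cells under DMSO, a log2 fold change of -0.62 (95% interval -1.82 to 0.58, adjusted p = 0.475, edgeR). Paired by replicate number it was lower in ALDHbr cells in 3 of 3 pairs, with ratios of 0.548, 0.423 and 0.866, and the blocked fit did not pass either (-0.66, adjusted p = 0.218, edgeR).

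ALDH1L1 was too low for the SUM159 fit, but its reads leaned to ALDHbr cells. It had 9, 9 and 13 counts in ALDHbr and 0, 2 and 1 in ALDHneg cells under DMSO, with no overlap, a ratio per total count of 11.0 (exact counting interval 3.42 to 56.0). Without the filter the adjusted p was 0.0105 (edgeR). Under NIF it had 7, 1 and 6 counts in ALDHbr and 4, 1 and 0 in ALDHneg cells, and the groups overlapped.

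In SW620 the sort separated the family far less. ALDH1A1 was 1.46-fold higher in ALDHbr than in ALDHneg cells under DMSO, and ALDHneg cells kept 68.5% of the ALDHbr mean. The ALDHbr libraries were at 1357, 1257 and 1327 CPM and the ALDHneg libraries at 883, 921 and 896 CPM. Every ALDHbr library exceeded every ALDHneg library, and the log2 fold change was 0.54 (SE 0.05, adjusted p = 1.12e-05, edgeR). Under NIF the libraries were at 918, 969 and 976 CPM against 553, 534 and 559 CPM, also without overlap, a 1.74-fold difference (log2 fold change 0.80, SE 0.05, adjusted p = 4.73e-07, edgeR).

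Of the 3 genes tested in SW620, 2 passed under DMSO, ALDH1A1 higher and ALDH1A3 lower in ALDHbr cells, beside 11.3% of all 13953 genes. That share was 38.8% without the second ALDHbr DMSO library and 5.03% to 5.45% without any other one library of the comparison. Under NIF 1 passed, ALDH1A1, beside 6.67% of all genes, or 3.48% to 4.07% without the second ALDHbr or any one ALDHneg NIF library. ALDH1A3 was at 136, 144 and 134 CPM in ALDHbr and 177, 182 and 173 CPM in ALDHneg cells under DMSO. It was thus lower in every ALDHbr library, by 1.29-fold (log2 fold change -0.36, SE 0.05, adjusted p = 0.000723, edgeR), the reverse of its order in SUM159. Under NIF its libraries overlapped, at 48.6, 52.1 and 47.9 CPM in ALDHbr and 49.9, 45.6 and 47.6 CPM in ALDHneg cells (log2 fold change 0.05, 95% interval -0.07 to 0.17, adjusted p = 0.611, edgeR). The change in this difference with NIF was 0.42 on the log2 scale and did not pass in edgeR (adjusted p = 0.136), where 0.00717% of all genes passed, but passed with DESeq2 (0.41, adjusted p = 0.00151) and in edgeR without the second ALDHbr DMSO library (0.46, adjusted p = 0.0265), where 0.191% of all genes passed.

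ALDH1B1 did not pass between the SW620 populations. Its log2 fold change was 0.14 under DMSO (95% interval -0.0018 to 0.29, adjusted p = 0.162, edgeR), with overlapping groups, and 0.18 under NIF (95% interval 0.03 to 0.33, adjusted p = 0.155, edgeR), where the groups did not overlap. Without the second ALDHbr DMSO library the DMSO difference passed (0.18, adjusted p = 0.0390). ALDH1L1 had 1, 3 and 4 counts in ALDHbr and 19, 13 and 5 in ALDHneg cells under DMSO, so ALDHneg cells held more in each library, by a ratio per total count of 4.58 (exact counting interval 2.10 to 11.4). Without the filter its adjusted p was 0.0450 (edgeR). Without the first ALDHbr DMSO library, ALDH1L1 had an adjusted p of 0.178 and a log2 fold change of -1.66. Under NIF its groups overlapped (3, 4 and 7 against 4, 9 and 4 counts).

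**Figure D1:**
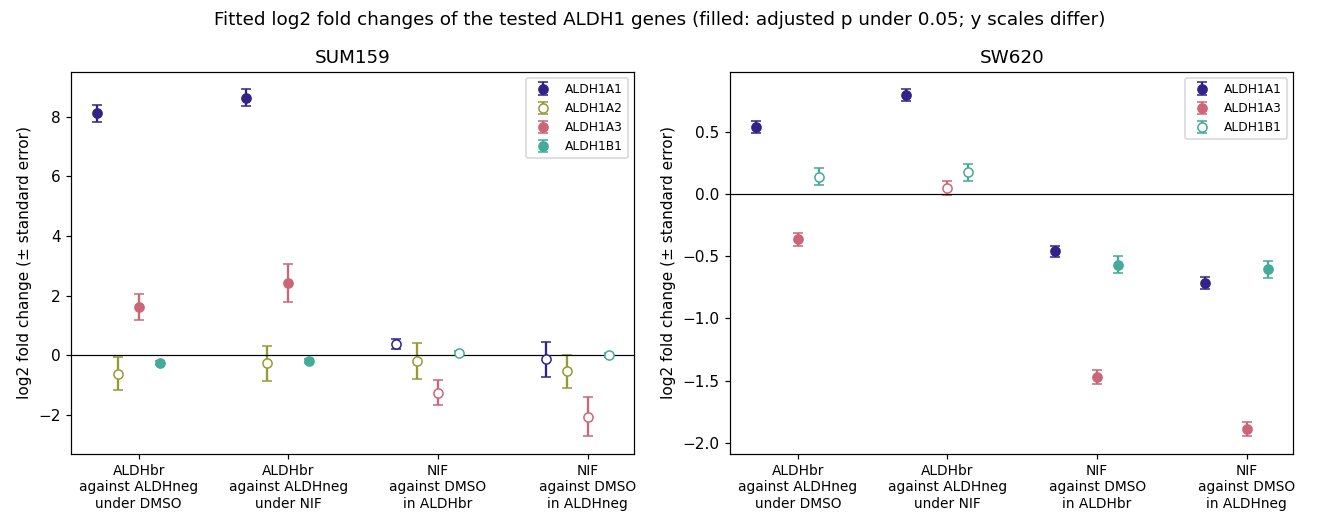
Fitted log2 fold changes (points) with standard errors (bars) of the ALDH1 genes that passed the filter, in SUM159 (left) and SW620 (right), for ALDHbr against ALDHneg under each treatment and NIF against DMSO in each population. Filled points passed an adjusted p of 0.05, and the vertical scales differ. ALDH1A1 is at 8.11 and 8.64 in the SUM159 sort comparisons and at 0.54 and 0.80 in those of SW620, and all 3 SW620 genes are below 0 under NIF.

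The lines were then compared in the fit of all 24 libraries, in which line and any difference in preparing or sequencing the lines cannot be told apart. Between SW620 and SUM159 under DMSO, 81.3% of all 16271 genes passed in ALDHbr and 81.2% in ALDHneg cells. ALDH1A2 entered this test only through the SUM159 libraries, ALDH1A3 only through those of SW620, and ALDH1L1 through SUM159 ALDHbr and SW620 ALDHneg cells under DMSO, so the values of these 3 genes are a description of where they are high. ALDH1A1 was 11.0-fold higher in SW620 in ALDHbr cells (log2 fold change 3.46, SE 0.15, adjusted p = 8.73e-17, edgeR) and 2087-fold higher in ALDHneg cells (log2 fold change 11.03, SE 0.24, adjusted p = 1.37e-22, edgeR). ALDH1A3 was 244-fold higher in SW620 in ALDHbr and 960.2-fold higher in ALDHneg cells. ALDH1B1 was 1.21-fold lower in SW620 in ALDHbr and 1.62-fold lower in ALDHneg cells. ALDH1A2, listed at 0 in all 3 SW620 ALDHbr DMSO libraries, was at least 3.90-fold higher in SUM159 against a floor of 3 counts per library. ALDH1L1 was lower in SW620 in ALDHbr (log2 fold change -1.90, adjusted p = 0.0111, edgeR, and -1.45 with 0.0682 without the first SW620 ALDHbr DMSO library) and higher in SW620 in ALDHneg cells (3.52, adjusted p = 0.000201, edgeR).

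The difference between populations was itself compared between the lines, and 19.1% of all genes passed. That share was 27.7% without the second SW620 ALDHbr DMSO library and 13.1% to 19.2% without any other one library of the comparison. For ALDH1A1 the ALDHbr against ALDHneg difference was smaller in SW620 (log2, SW620 minus SUM159, -7.57, SE 0.28, adjusted p = 4.92e-15, edgeR). For ALDH1A3 it was also lower in SW620 (-1.98, adjusted p = 7.18e-05, edgeR), with the fitted direction turned from higher in ALDHbr cells of SUM159 to lower in those of SW620. The SUM159 side of this difference rested on few reads, as given above. ALDH1L1 had a value of -5.42 (adjusted p = 0.000477, edgeR), but it entered the test through the groups whose high levels make up this difference, so its value is a description. For ALDH1B1 it was higher in SW620 (0.42, adjusted p = 0.0034). ALDH1A2 did not pass (-1.26, 95% interval -4.87 to 2.35).

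The next question was how the family differed between NIF and DMSO within each sorted population. The paper's methods do not spell out whether the sort came after the treatment. The paper reports that NIF lowered the proportion of ALDHbr cells, and whether the gates held like cells under both treatments was not tested. In SW620, ALDH1A1, ALDH1A3 and ALDH1B1 all fell in both populations, 3 of 3 tested in each. Of all genes, 43.3% passed in ALDHbr and 45.1% in ALDHneg cells, and similar numbers rose and fell. The ALDHbr share was 50.4% without the second ALDHbr DMSO library and 35.6% to 42.8% without any other one library of the comparison. The family's median log2 fold change was -0.57 in ALDHbr and -0.71 in ALDHneg cells, against -0.0070 and -0.0076 for all genes. ALDH1A3 fell the most of the 3, from 138 ± 5.35 to 49.5 ± 2.27 CPM in ALDHbr cells, or 2.78-fold (log2 fold change -1.47, SE 0.06, adjusted p = 1.52e-10, edgeR), and from 177 ± 4.66 to 47.7 ± 2.15 CPM in ALDHneg cells, or 3.71-fold (-1.89, SE 0.06, adjusted p = 1.36e-11, edgeR). The library values given above show no overlap between treatments in either population.

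ALDH1A1 fell 1.38-fold in ALDHbr cells, from 1313 ± 51.3 to 954 ± 31.8 CPM (log2 fold change -0.46, SE 0.05, adjusted p = 3.1e-06, edgeR), and 1.64-fold in ALDHneg cells, from 900.3 ± 19.3 to 549 ± 13.4 CPM (-0.71, SE 0.05, adjusted p = 3.64e-08, edgeR). After NIF the ALDHbr mean was 72.7% and the ALDHneg mean 61.0% of that under DMSO. The difference between these falls was 0.25 on the log2 scale and did not pass (adjusted p = 0.498, edgeR, 95% interval 0.11 to 0.40). ALDH1B1 fell from 53.7, 47.2 and 52.1 CPM to 34.7, 36.6 and 32.0 CPM in ALDHbr cells (log2 fold change -0.57, SE 0.07, adjusted p = 1.39e-05, edgeR) and from 47.2, 48.1 and 43.3 CPM to 30.9, 30.8 and 29.6 CPM in ALDHneg cells (-0.60, SE 0.07, adjusted p = 6.72e-06, edgeR). Each NIF library lay below each DMSO library of its population. These falls passed in all 14 alternative analyses of each. ALDH1A2 had no count in any SW620 ALDHbr library, and ALDH1L1 overlapped between treatments in ALDHbr cells (3, 4 and 7 counts under NIF, and 1, 3 and 4 under DMSO).

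In SUM159 the treatment comparison gave no call by the same test, which carried no replicate block. In ALDHbr cells 0 of 4 genes passed with edgeR, beside 3.16% of all genes. That share was 13.3% with the replicate block and 1.46% to 2.12% without any one of the 6 libraries. ALDH1A1 and ALDH1A3 had an unadjusted p under 0.05 with edgeR. For ALDH1A3 it is a description, since that gene entered the fit through the ALDHbr DMSO libraries. With DESeq2 0 passed, and ALDH1A3 had no adjusted p. ALDH1A1 libraries were at 186, 127 and 218 CPM with NIF and at 150.1, 103 and 153 CPM with DMSO, and the treatments overlapped (log2 fold change 0.38, SE 0.17, adjusted p = 0.253, edgeR). SUM159 libraries were paired by their replicate number, and within the pairs NIF was higher in 3 of 3, by 1.24-fold, 1.23-fold and 1.43-fold. Blocked on the replicate number, the log2 fold change was 0.37 and passed (adjusted p = 0.000102, edgeR), and without the second NIF library the unblocked value was 0.58 (adjusted p = 0.0497). Over all 14 alternatives the adjusted p ran from 0.000102 to 0.590.

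ALDH1A3 in SUM159 ALDHbr cells had 5, 9 and 14 counts under NIF and 16, 14 and 33 under DMSO. On the CPM scale no NIF library reached a DMSO library, with a log2 fold change of -1.26 (SE 0.42, adjusted p = 0.129, edgeR). With the replicate block the value was -1.26 (adjusted p = 0.0317, edgeR), and in the fit of all 24 libraries -1.28 (adjusted p = 0.0105, edgeR). ALDH1A3 entered the fits of SUM159 alone through its level in the ALDHbr DMSO libraries, the higher arm of this comparison. Its p-values from those fits are therefore a description. ALDH1A2 (-0.20, 95% interval -1.48 to 1.09) and ALDH1B1 (0.06, 95% interval -0.08 to 0.20) were overlapping between treatments. ALDH1L1 had 7, 1 and 6 counts under NIF and 9, 9 and 13 under DMSO, without overlap, and its adjusted p without the filter was 0.544 (edgeR).

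In SUM159 ALDHneg cells 0 of 4 genes passed with edgeR, beside 3.30% of all genes (13.2% with the replicate block, and 1.27% to 2.04% without the first or the third library of either treatment), with 1 at an unadjusted p under 0.05 (ALDH1A3), and 0 with DESeq2, which again gave ALDH1A3 no adjusted p. ALDH1A3 had 2, 1 and 2 counts under NIF and 5, 6 and 11 under DMSO, without overlap, a ratio of DMSO over NIF per total count of 4.47 (exact counting interval 1.65 to 15.1). Its log2 fold change was -2.07 (SE 0.66, adjusted p = 0.110, edgeR), and it passed with the replicate block (adjusted p = 0.0415) and in the fit of all 24 libraries (-2.07, adjusted p = 0.0271). ALDH1A1, at 28, 10 and 10 counts under NIF and 17, 13 and 22 under DMSO, overlapped (log2 fold change -0.14, 95% interval -1.41 to 1.13). ALDH1B1 had a mean of 84.6 ± 5.57 CPM with NIF and of 84.8 ± 4.53 CPM with DMSO. No difference between the populations in the response to NIF was called for the 4 genes (0 passed with edgeR or DESeq2, 0 had an unadjusted p under 0.05, and 0% of all genes passed with edgeR).

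The response to NIF was then compared between the lines, a comparison added after the data had been seen. In ALDHbr cells ALDH1A1 and ALDH1B1 passed, beside 23.1% of all genes (28.0% without the second SW620 ALDHbr DMSO library). ALDH1A2 had no count in any SW620 ALDHbr library, so its difference could not be estimated there. ALDH1L1 entered this fit partly through the SUM159 ALDHbr DMSO libraries, so its value is a description (2.22, 95% interval 0.23 to 4.20, adjusted p = 0.102, edgeR). ALDH1A1 differed by -0.85 on the log2 scale (SW620 minus SUM159, SE 0.19, adjusted p = 0.00185, edgeR) and ALDH1B1 by -0.63 (SE 0.10, adjusted p = 4.05e-05, edgeR). In ALDHneg cells ALDH1B1 differed, by -0.59 (SE 0.10, adjusted p = 7.13e-05, edgeR), as did 22.4% of all genes. ALDH1A3 fell in SW620 and was lower in every SUM159 NIF library, and its difference between lines was -0.19 in ALDHbr (95% interval -0.89 to 0.50) and 0.19 in ALDHneg cells (95% interval -0.72 to 1.09). ALDH1A1 in ALDHneg cells did not pass (-0.57, 95% interval -1.60 to 0.46).

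The make-up of the family's RNA was compared per length, as CPM per kb of the canonical transcript. In SUM159 ALDHneg cells nearly all of it was ALDH1B1, at 98.4% ± 0.309 under DMSO and 98.8% ± 0.317 under NIF, and ALDH1A1 held 0.808% ± 0.130 and 0.710% ± 0.326. In SUM159 ALDHbr cells ALDH1A1 held 72.9% ± 4.50 under DMSO and 76.8% ± 6.17 under NIF, and ALDH1B1 most of the rest. In SW620, ALDH1A1 held from 86.6% ± 0.324 (ALDHneg, DMSO) to 94.7% ± 0.308 (ALDHbr, NIF). The share of ALDH1A3 in SW620 was 10.3% ± 0.167 in ALDHneg and 5.82% ± 0.425 in ALDHbr cells under DMSO, and 4.81% ± 0.150 and 2.97% ± 0.134 under NIF. Summed over the 5 genes, SUM159 had 82.7 ± 12.3 CPM per kb in ALDHbr and 26.7 ± 1.58 in ALDHneg cells under DMSO, while SW620 had 727 ± 23.6 and 527 ± 10.0. The sum in SW620 ALDHneg cells was therefore above that of SUM159 ALDHbr cells, although the sort called the former low. RNA levels were not set against enzyme activity here, and how the gates of the lines compare was not tested.

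**Figure D2:**
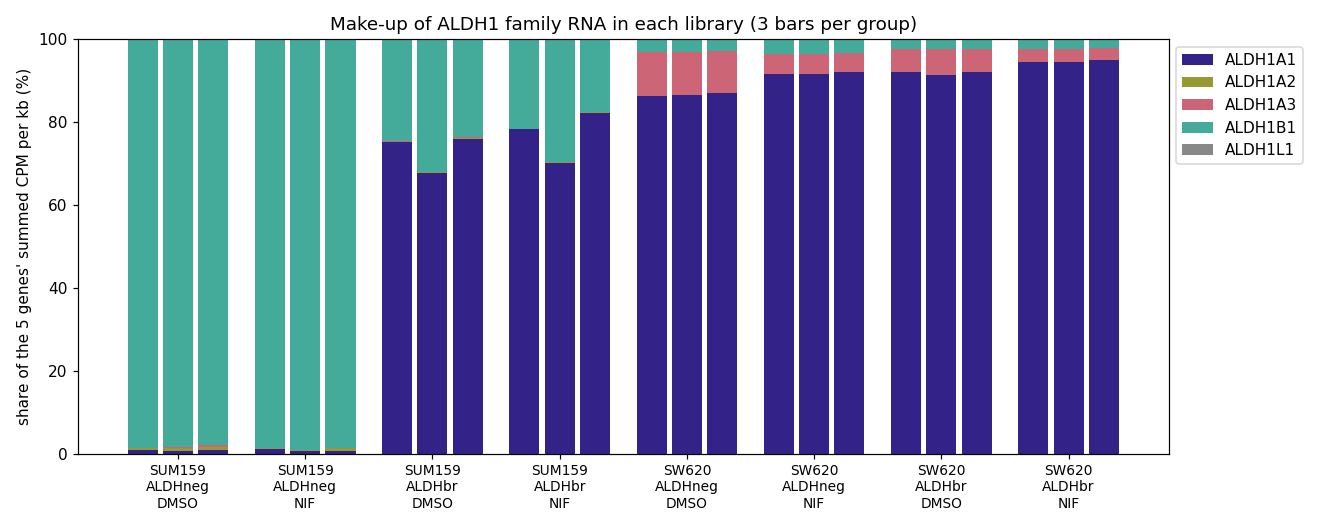
Share of each ALDH1 gene in the family's summed CPM per kb of canonical transcript, in percent, with 1 bar per library and 3 bars per group. ALDH1B1 fills the SUM159 ALDHneg bars, ALDH1A1 takes 67.7% to 82.2% of the SUM159 ALDHbr bars and most of every SW620 bar, and the ALDH1A3 share in SW620 is smaller under NIF.

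Other aldehyde dehydrogenases were followed as 14 genes outside the family, 12 of them tested in each line. In SUM159 ALDHbr against ALDHneg cells under DMSO, 1 was higher and 5 were lower, with a median log2 fold change of -0.44 beside 0.00047 for all genes, of which 23.0% passed. The one that rose was ALDH18A1, which acts in proline synthesis (log2 fold change 0.32, adjusted p = 0.00368, edgeR), and the lowest was ALDH7A1, which acts in lysine breakdown, at 2.46 CPM against 17.7 CPM (-2.85, adjusted p = 1.18e-07, edgeR). ALDH8A1 was next, at 0.244 CPM against 0.847 CPM (-1.72, adjusted p = 0.0248, edgeR). Its higher group helped carry it past the filter on low counts, so this p-value is a description. In SW620 ALDHbr against ALDHneg cells 2 were higher, mitochondrial ALDH2 (0.38, adjusted p = 0.000779) and ALDH18A1 (0.33, adjusted p = 0.000862), and 1 was lower, ALDH3B1 (-0.23, adjusted p = 0.0280), beside 11.3% of all genes (38.8% without the second ALDHbr DMSO library). Under NIF in SW620 ALDHbr cells 4 rose and 4 fell, with a median log2 fold change of -0.01 beside -0.0070 for all genes. Of all genes 43.3% passed (50.4% without the second ALDHbr DMSO library). ALDH3B1 (0.44, adjusted p = 4.28e-05) and ALDH3A1 (0.41, adjusted p = 0.000516) rose, and ALDH7A1 (-0.52, adjusted p = 8e-06) and ALDH18A1 (-0.65, adjusted p = 1.82e-07) fell. In SUM159 ALDHbr cells under NIF 1 gene fell, ALDH3B1 (-0.49, adjusted p = 0.0141, edgeR), beside 3.16% of all genes.

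Of 24 genes of the retinoid pathway, which surrounds the reaction of the ALDH1A enzymes, 15 were tested in SUM159 and 18 in SW620. In ALDHbr against ALDHneg cells under DMSO 3 were higher and 2 lower in SUM159 (median log2 fold change 0.03, beside 0.00047 for all genes, of which 23.0% passed). DHRS3, which returns retinaldehyde to retinol (0.72, adjusted p = 0.000471), and the receptor RXRA (0.63, adjusted p = 6.98e-07) were among the higher, and the receptor RARG (-0.45, adjusted p = 0.000691) and the carrier CRABP2 (-0.76, adjusted p = 0.000789) were the lower. In SW620 2 were higher, RBP4 (0.53, adjusted p = 0.0213) and FABP5 (0.32, adjusted p = 0.0392), and 5 lower, beside 11.3% of all genes (38.8% without the second ALDHbr DMSO library). Among these, CYP26A1, which degrades retinoic acid and is induced by it, was at 0.197 CPM in ALDHbr and 0.592 CPM in ALDHneg cells (-1.58, adjusted p = 0.0242), and the retinol dehydrogenase DHRS9 was at 7.51 CPM and 12.0 CPM (-0.67, adjusted p = 0.000443). Under NIF in SW620 ALDHbr cells 3 rose and 8 fell, with a median log2 fold change of -0.22 beside -0.0070 for all genes. Of all genes 43.3% passed (50.4% without the second ALDHbr DMSO library). DHRS9 rose from 7.51 to 65.7 CPM (3.13, adjusted p = 1.58e-11), opposite to the 3 ALDH1 genes, and RBP4 rose from 4.73 to 7.89 CPM (0.73, adjusted p = 0.000255). The retinol transporter STRA6 fell (-0.96, adjusted p = 0.00121), as did CYP26B1, from 0.988 to 0.135 CPM (-2.78, adjusted p = 0.00174). CYP26A1 and CYP26B1 had means under 1 CPM in both groups compared. The higher group helped carry each past the filter on low counts, so their p-values are a description, though both are in the counts given. In SUM159 ALDHbr cells under NIF 1 rose, FABP5 (0.36, adjusted p = 0.0321), beside 3.16% of all genes. All of these p-values are from edgeR.

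**Figure D3:**
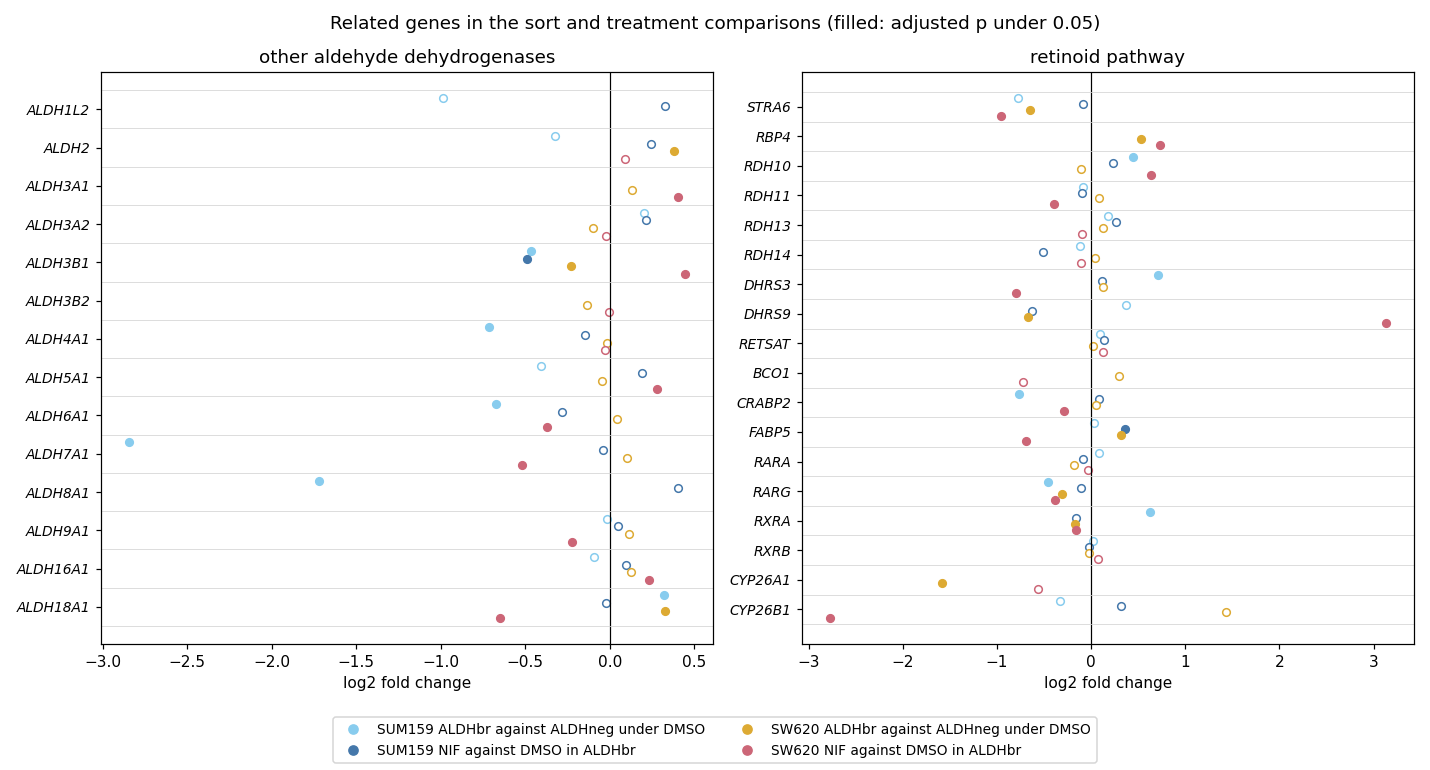
Log2 fold changes of the other aldehyde dehydrogenases (left) and the retinoid pathway genes (right) in ALDHbr against ALDHneg cells under DMSO and in NIF against DMSO in ALDHbr cells, for both lines. Filled points passed an adjusted p of 0.05. ALDH7A1 is at -2.85 in the SUM159 sort comparison, and DHRS9 at 3.13 under NIF in SW620.

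The folate genes, the setting of ALDH1L1, were 16, with 15 tested in each line. In SUM159 ALDHbr against ALDHneg cells 1 was higher, MTHFD2L (0.34, adjusted p = 0.0294, edgeR), and 1 lower, SHMT1 (-0.61, adjusted p = 0.000112, edgeR), beside 23.0% of all genes. Between the SW620 populations 0 of 15 passed with edgeR under DMSO, with 2 at an unadjusted p under 0.05, beside 11.3% of all genes (38.8% without the second ALDHbr DMSO library). Under NIF in SW620 ALDHbr cells 3 rose and 8 fell, with mitochondrial MTHFD2 (0.98, adjusted p = 1.56e-09) and SHMT2 (0.61, adjusted p = 8.1e-07) rising and cytosolic SHMT1 (-0.52, adjusted p = 2.35e-05) and thymidylate synthase TYMS (-0.71, adjusted p = 2.8e-06) falling. The median log2 fold change was -0.22, beside -0.0070 for all genes, of which 43.3% passed (50.4% without the second ALDHbr DMSO library). In SUM159 ALDHbr cells 0 of 15 passed under NIF with edgeR, with 2 at an unadjusted p under 0.05, beside 3.16% of all genes.

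The genes whose pattern over the 12 libraries of a line was most like each member were found by Pearson's r of log2 CPM, as a description over libraries that share groups and sorts. For ALDH1A1 in SUM159 they were KRT75 (r = 0.994), HTR7 (r = 0.991) and TP73 (r = 0.990), all higher in ALDHbr cells, such as KRT75, a keratin, at 376 CPM in ALDHbr and 18.3 CPM in ALDHneg cells under DMSO. For ALDH1A1 in SW620 they were FGFR4 (r = 0.994), ANXA13 (r = 0.987) and TM4SF4 (r = 0.985). For ALDH1A3 in SW620 they were FAM83D (r = 0.997), NCAPH (r = 0.995) and TLR4 (r = 0.994), all lower under NIF. For ALDH1B1 they were PPP3R1 (r = 0.984), CAMKK1 (r = 0.976) and ACP1 (r = 0.968) in SUM159, and GNL2 (r = 0.991), SLC44A3 (r = 0.987) and FAM118A (r = 0.987) in SW620. No gene was among the 3 of ALDH1A1 in both lines.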

How the data were processed

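RNA from 24 libraries in 8 groups of 3 was measured. The table that the authors deposited holds raw counts of reads for 28307 genes, as whole numbers. The submitters' processing notes name FastQC, STAR and GRCh38, without versions. The counting tool, strand setting and annotation are not given in the sources used here, so reads shared with overlapping antisense genes at ALDH1A2, ALDH1A3 and ALDH1L1 are uncertain.

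Counts were analysed with R 4.3.3, edgeR 4.0.16 (filterByExpr, TMM, quasi-likelihood F test, Benjamini-Hochberg over all genes tested, threshold 0.05), fitting each line apart, and all 24 libraries for comparisons between lines. CPM use TMM library sizes. Intervals are 95% intervals, and counting intervals cover counting error only. Replicate numbers were checked by the correlation of deviations from group means. It passed 0.1 in 12 of 12 SUM159 pairs (0.182 to 0.451) and in 1 of 12 SW620 pairs (-0.278 to 0.214). Ratios within pairs are therefore given for SUM159 only. The main fits carried no replicate block in either line, so their SUM159 p-values do not use the pairing. The blocked fit is an alternative. The correlations gave little sign of pairing in SW620, and the sample titles do not say whether its libraries of the same number share an experiment. Replicates differed by more than sampling noise (chi-square per gene 1.97 to 46.1 over 24 pairs). Lengths are from GENCODE and promoters from RefSeq. The steps were tested on simulated data.

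The members, lists and rule for naming genes (every member, the 2 highest and 2 lowest called genes of each list in ALDHbr against ALDHneg under DMSO and in NIF against DMSO in ALDHbr, and the 3 genes most correlated with each member at a mean log2 CPM of at least 0) were chosen with earlier results of these data known. Each result was also computed with DESeq2 1.42.0, with RLE or library-size scaling, no filter, a mean of at least 10 counts, only the groups compared, all 24 libraries, a replicate block and each library left out.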

Additional observations from a re-analysis of the deposited data

Results flagged for a closer look

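The effect of the sort under DMSO differed between the lines by a test of the difference itself. On the log2 scale, as SW620 minus SUM159, the difference was -7.57 for ALDH1A1, -1.98 for ALDH1A3 and 0.42 for ALDH1B1. For ALDH1A3 the SUM159 side rests on few counts, 14 to 33 in ALDHbr and 5 to 11 in ALDHneg libraries. The value of -5.42 for ALDH1L1 rests on few counts, and the gene entered the test through the groups whose high levels make up the difference. The effect of NIF, compared between the lines after the data had been seen, differed in ALDHbr cells by -0.85 for ALDH1A1 and -0.63 for ALDH1B1, and in ALDHneg cells by -0.59 for ALDH1B1. Line and any difference in preparing the lines cannot be told apart, and how the sort gates of the lines compare was not tested.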

How the results depend on the processing

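Of 228 recomputed counts of genes that passed, 215 stayed within 1.5 times the reported count. The counts are small, so a change from 3 to 2 genes falls within this bound. The ALDH1B1 call in the SUM159 sort under NIF held in 9 of 14 alternatives. The replicate block raised the count of genes that passed for NIF in SUM159 from 0 to 2 in ALDHbr cells, with ALDH1A3 included as a description. In ALDHneg cells the count rose from 0 to 1. On the 3 genes tested in SW620 the block changed no call, and there the replicate numbers correlated past 0.1 in 1 of 12 pairs. Over all genes it moved the SUM159 calls from 473 to 1994 for NIF in ALDHbr, from 493 to 1970 for NIF in ALDHneg, from 3432 to 5388 for the sort under DMSO and from 3281 to 5270 for the sort under NIF. DESeq2 called 875 and 862 genes for NIF in SUM159 ALDHbr and ALDHneg cells and 29 for the SW620 interaction (1 with edgeR), the fit of all 24 libraries called 725 and 743 for NIF in SUM159, and with only the groups compared 292 passed for NIF in SUM159 ALDHneg cells and 729 for the SW620 sort under DMSO (1577 in the fit of the line). Without the second ALDHbr DMSO library, 5487 genes passed for that sort and 27 for the SW620 interaction, and without any other one library of the comparison 712 to 772 passed for that sort. With 1 library left out, 222 to 322 genes passed for NIF in SUM159 ALDHbr cells, 192 to 584 in ALDHneg cells, and 494 to 996 for the SW620 sort under NIF. Of the ALDH1 genes, the fit of all 24 libraries passed 1 in each SUM159 population for NIF. For the SUM159 sort under NIF, 3 passed with ALDH1A3 included, beside 3281 of 14953 genes. With only the groups compared 1 of 3 tested passed, beside 3238 of 14469 genes, and with a library left out from 1 to 3 passed, beside 15.7% to 19.3% of all genes. With a library left out, 0 to 1 passed for NIF in SUM159 ALDHbr cells, 2 to 4 for the SW620 sort under DMSO, where ALDH1L1 then entered the test, and 0 to 1 for the SW620 interaction, which was 1 with DESeq2. With a mean of at least 10 counts, 3 passed between the lines in each population, since only 3 were tested. Beside them, 12375 of 14895 genes passed in ALDHbr and 12263 in ALDHneg cells. The causes of the other changes were not tested.

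Directions turned only for values that had not passed. With 1 library left out at a time, log2 values of ALDH1A2 ran from -1.75 to 0.62 for the line difference of the sort, from -1.82 to 0.54 for that of NIF in ALDHneg cells, from -0.72 to 0.47 for the SUM159 sort under NIF, from -0.10 to 1.10 for its interaction and from -0.64 to 0.49 for NIF in ALDHbr cells. ALDH1A3 ran from -0.58 to 0.19 and from -0.12 to 0.39 for the line differences of NIF in ALDHbr and ALDHneg cells. For NIF in SUM159 ALDHneg cells, ALDH1A1 ran from -0.63 to 0.051 and ALDH1B1 from -0.054 to 0.036, with 0.0034 without the filter. ALDH1B1 in the SW620 interaction ran from -0.011 to 0.085. At these depths 3 counts are 0.0696 to 0.0992 CPM, which limits ALDH1A2 and ALDH1L1.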
